A study of Macaca fascicularis with 4 samples.

Results

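Transcripts of both white fat libraries, labelled oWAT and sWAT, were compared with those of liver and muscle of the cynomolgus monkey (Macaca fascicularis). The comparison used 4 of the 4 libraries of the series, 2 from fat and 2 from the other tissues, each made from RNA of 5 monkeys pooled per tissue and read as full-length cDNA on a PacBio Sequel II instrument. The labels give the tissue alone, with no age, sex, diet or treatment, and leave oWAT and sWAT unexplained; WAT commonly stands for white adipose tissue. The deposited data of the library labelled oWAT carry the name eWAT and those labelled sWAT the name iWAT; the labels were followed, and every difference between the depots below rests on them. With 1 pooled library per tissue there are no replicates, so no test between tissues was possible. All intervals are exact 95% Clopper-Pearson intervals that cover counting error alone, not the spread between animals.

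A gene was taken as higher in fat only where oWAT over liver, oWAT over muscle, sWAT over liver and sWAT over muscle all agreed, with every lower bound of the fold above 2 and at least 10 counts in both fat libraries. It was taken as lower where all 4 upper bounds were below 0.5, with at least 10 counts in both liver and muscle. Folds are ratios of counts scaled to the library total (CPM); the same rule was applied with trimmed mean of M-values (TMM) scaling, which sets the bulk of genes equal between libraries. Unless stated otherwise, a fold is that of the pairing closest to 1 under library-total scaling.

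White fat stores energy as triglyceride. Adipocytes take up fatty acids released from circulating lipoproteins, make more from glucose, keep the triglyceride in a droplet coated by perilipins, and release fatty acids again by lipolysis. Liver and skeletal muscle, for all their differences, both store glycogen, are rich in mitochondria and exchange alanine and lactate through the blood. In bulk tissue, fewer cells of a type and less RNA per cell cannot be told apart.

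The libraries held between 383896 counts (sWAT) and 439872 counts (muscle) assigned to genes, and 10127 genes had at least 10 counts over the 4 libraries. The labels stood against their markers as follows. ADIPOQ (adiponectin) had 915 counts in oWAT and 1117 counts in sWAT, against 1 in liver and 43 in muscle. ALB (albumin) had 1 count in oWAT and 0 counts in sWAT, against 61515 in liver and 0 in muscle. ACTA1 (skeletal actin) had 0 counts in oWAT and 1 count in sWAT, against 1 in liver and 15827 in muscle. The 15 hepatocyte markers summed to 17 counts in muscle, 16 of them from TF, and the 15 myofibre markers to 58 counts in liver, 54 of them from TTN. In fat the hepatocyte markers summed to 155 counts in oWAT and 309 counts in sWAT, more than in muscle. Of these 15 markers, 11 were at 0 counts in oWAT and 13 in sWAT. The myofibre markers summed to 49 counts in oWAT and 51 counts in sWAT. The mesothelial list summed to 4241 CPM in oWAT and 162 CPM in sWAT, against 29.7 CPM in liver and 105 CPM in muscle.

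Under library-total scaling 233 of 5520 genes were higher in both fat libraries, 4.22% of those tested, and 23 of 3756 were lower, 0.612% of those tested. With TMM scaling the counts were 68 (1.23%) and 53 (1.41%), so that the split of calls between the directions depended on the scaling; DESeq2 size factors gave 71 (1.29%) and 52 (1.38%). All 68 were among the 233, and all 23 were among the 53. By the looser reading, 11.9% of measured genes had all 4 folds above 1 with intervals excluding 1 and 0.731% had all 4 below, against 4.43% and 2.71% with TMM and 4.66% and 2.53% with DESeq2 size factors. Among all 10127 measured genes, the background for the gene lists below, 2.3% were called higher and 0.227% lower, or 0.671% and 0.523% with TMM. The median measured gene lay 0.86 above liver and 0.45 above muscle on the log2 scale under library totals, and at -0.07 and -0.04 with TMM. The genes called with both scalings, 68 higher and 23 lower, are therefore described first in each direction.

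**Figure D1:**
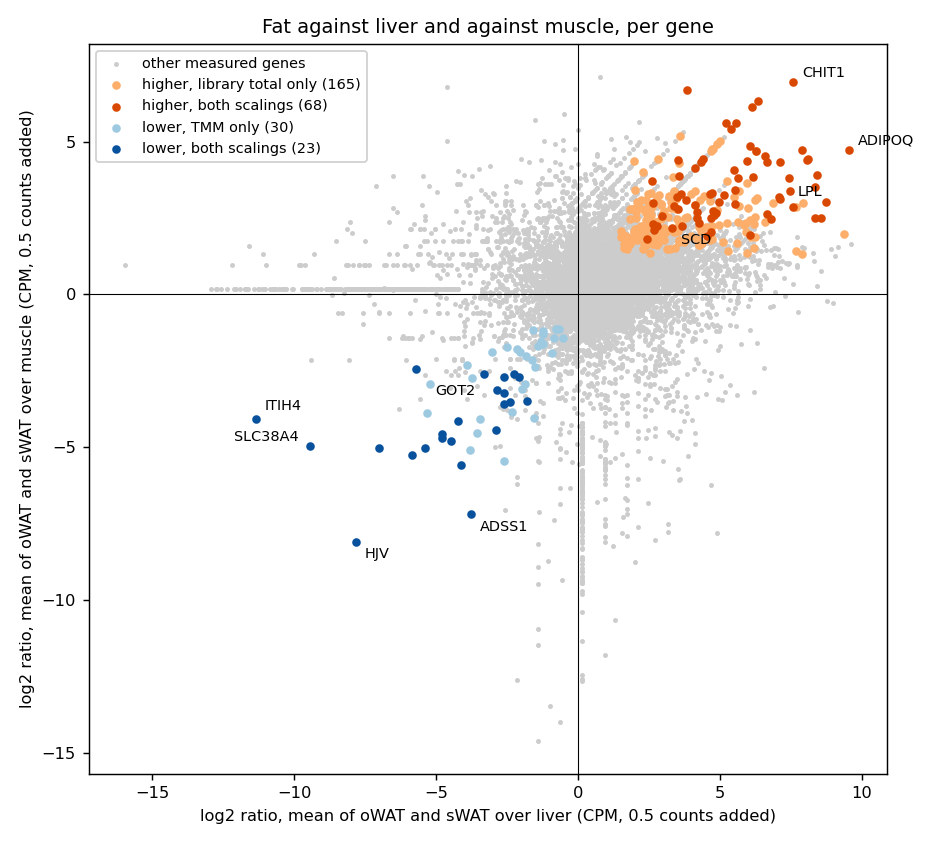
Each point is 1 of 10127 genes, placed by the log2 ratio of fat (mean of oWAT and sWAT) to liver on the x axis and to muscle on the y axis, in CPM after adding 0.5 counts. The 233 genes called higher fill the upper right corner and the 23 called lower with both scalings the lower left, where HJV, ADSS1, SLC38A4 and ITIH4 are labelled.

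Among the 23 lower genes were 3 aminotransferases, genes of glycogen and hexose phosphate handling, and single genes of iron control, purine metabolism and transport. GOT2, the mitochondrial aspartate aminotransferase of the malate-aspartate shuttle, had 46 counts in oWAT and 40 counts in sWAT, against 349 in liver and 427 in muscle. It was 6.88-fold lower in oWAT than in liver (5.05 to 9.57), the closest of its pairings, and 12.4-fold lower with TMM. GOT1, its cytosolic partner, had 11 counts in each fat library, against 67 in liver and 147 in muscle, a closest ratio of 5.34 (2.80 to 11.2). GPT, the cytosolic alanine aminotransferase, had 0 counts in both fat libraries, against 72 in liver and 18 in muscle. With 3 counts in place of 0 it was 5.24-fold lower (lower bound 3.84). For all 3 enzymes both fat libraries lay below both other tissues.

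GPT2, the mitochondrial alanine aminotransferase, did not share the pattern: it had 172 counts in oWAT and 150 counts in sWAT, against 117 in liver and 112 in muscle. The list of branched-chain and other amino acid breakdown had 38 measured members of 45 listed, and these 3 aminotransferases were its only calls under either scaling. ACADSB, an acyl-CoA dehydrogenase of isoleucine breakdown, and MMUT, the methylmalonyl-CoA mutase, lay below both tissues without a call and were far closer to muscle than to liver. ACADSB had 63 and 47 counts in oWAT and sWAT, against 1859 in liver and 76 in muscle, and MMUT had 27 and 24, against 280 and 31. The median log2 ratio of fat over liver for the list was -1.74, against 0.86 for all measured genes, while fat over muscle was 0.17, against 0.45 for all measured genes.

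Glycogen and hexose phosphate genes formed the next group. PPP1R3C, which targets protein phosphatase 1 to glycogen, had 10 counts in oWAT and 21 counts in sWAT, against 101 in liver and 109 in muscle. SLC37A4, the glucose-6-phosphate transporter of the endoplasmic reticulum, had 10 counts in each fat library, against 117 in liver and 71 in muscle. The closest ratio was 4.22 (2.62 to 7.11) for PPP1R3C and 6.20 (3.18 to 13.5) for SLC37A4. PFKFB1, an isoform of the enzyme that makes and breaks fructose 2,6-bisphosphate, had 3 counts in oWAT and 1 count in sWAT, against 47 in liver and 45 in muscle, a ratio of 13.5 (4.34 to 68.1).

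Of 31 measured genes of gluconeogenesis and glycogen (35 listed), 3 were lower with library totals and 4 with TMM, which added PGM1 (phosphoglucomutase). PGM1 had 45 counts in oWAT and 29 counts in sWAT, against 120 in liver and 681 in muscle. In the opposite direction stood GYG2, a glycogenin that primes glycogen chains, with 55 counts in oWAT and 57 counts in sWAT, against 2 in liver and 6 in muscle (10.2-fold higher, 4.38 to 28.9). PYGB, the brain-type glycogen phosphorylase, had 207 and 208 counts in oWAT and sWAT, against 21 in liver and 82 in muscle; its 2.80-fold difference (2.16 to 3.66) was not called with TMM (1.89-fold).

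Other isozymes of these families were highest in liver or in muscle. For phosphorylase, PYGL was highest in liver with 284 counts, against 94 in oWAT and 116 in sWAT, and PYGM was highest in muscle with 2612 counts, against 6 in oWAT and 4 in sWAT. For glycogen synthase, GYS1 had 86 counts in oWAT and 83 counts in sWAT, against 13 in liver and 389 in muscle, and the liver form GYS2 had 1 and 0, against 204 and 0. Of the glycogenins, GYG1 was highest in muscle, with 14 counts in oWAT and 18 counts in sWAT, against 2 in liver and 91 in muscle.

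**Figure D2:**
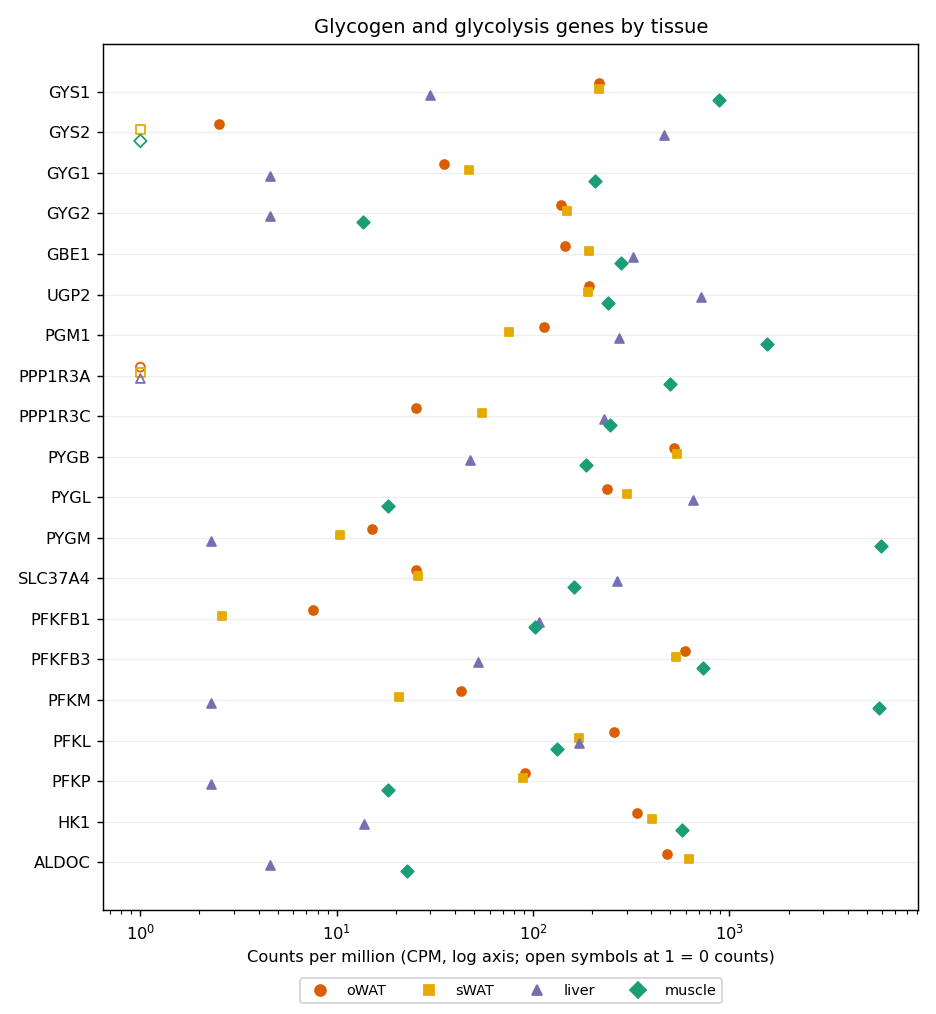
CPM of 20 glycogen and glycolysis genes in each library on a log axis, with open symbols at 1 standing for 0 counts. GYG2, PYGB, PFKP and ALDOC lie to the right in both fat libraries, while PPP1R3C, SLC37A4 and PFKFB1 lie to the left of both liver and muscle.

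In glycolysis 2 of 20 measured genes were higher in fat and 1 was lower. ALDOC, an aldolase also known from brain, had 190 counts in oWAT and 240 counts in sWAT, against 2 in liver and 10 in muscle. PFKP, the platelet phosphofructokinase, had 36 and 34 counts in oWAT and sWAT, against 1 in liver and 8 in muscle, and its 4.87-fold difference (2.21 to 12.2) was called with library totals only. PFKM had 17 and 8 counts in oWAT and sWAT, against 1 in liver and 2532 in muscle, and PFKL had 102 and 66, against 75 and 58, so that PFKL differed little between sWAT and liver (172 CPM in sWAT, against 171 CPM in liver). ALDOA was not analysed here.

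HJV (hemojuvelin), the co-receptor through which bone morphogenetic proteins control the iron hormone hepcidin, had the largest closest ratio among the 23. It had 0 counts in both fat libraries, against 126 in liver and 153 in muscle. With 3 counts in place of 0 it was 36.8-fold lower (lower bound 29.5), or 59.3-fold with TMM (lower bound 47.6). It was the 1 call among 31 measured genes of iron, haem and selenium, of 37 listed. Other members were high in liver alone, such as TFR2 with 1 count in oWAT and 0 counts in sWAT, against 838 in liver and 0 in muscle. TFRC, the receptor that takes up transferrin, had 72 and 92 counts in the fat libraries, against 28 in liver and 92 in muscle.

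ADSS1, an enzyme of the purine nucleotide cycle, had 2 counts in each fat library, against 38 in liver and 412 in muscle, a closest ratio of 16.7 (4.31 to 143). LDHD, the mitochondrial D-lactate dehydrogenase, had 5 counts in each fat library, against 37 in liver and 58 in muscle (6.49-fold lower, 2.55 to 21.2). AGMAT, annotated as agmatinase, had 0 counts in fat, against 32 in liver and 21 in muscle. With 3 counts in place of 0 it was 6.11-fold lower (lower bound 4.54). These enzymes were near or at 0 in fat, and their intervals are correspondingly wide. The list of creatine, nucleotide and energy sensing genes had ADSS1 as its 1 call among 28 measured members. GATM, which makes the creatine precursor, had 73 counts in oWAT and 25 counts in sWAT, against 1302 in liver and 136 in muscle, and GAMT had 1 and 0, against 15 and 8; neither was called.

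SLC38A4, a transporter of neutral amino acids, is on the amino acid and solute transporter list. It had 0 counts in oWAT and 2 counts in sWAT, against 876 in liver and 39 in muscle. Muscle set its closest ratio of 17.0 (4.41 to 145). Of the 23 lower genes 12 belonged to none of the gene lists. RET, the receptor tyrosine kinase for ligands of the GDNF family, had 0 counts in both fat libraries, against 15 in liver and 13 in muscle. Its ligand gene GDNF had 1 count in oWAT and 0 counts in sWAT, against 11 in liver and 22 in muscle, and was called lower with TMM only.

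NDRG2, of the N-myc downstream-regulated family, had 27 counts in oWAT and 23 counts in sWAT, against 171 in liver and 344 in muscle, a closest ratio of 5.74 (3.81 to 8.97). PTP4A1, a protein tyrosine phosphatase, had 95 counts in oWAT and 62 counts in sWAT, against 410 in liver and 532 in muscle, a ratio of 3.91 (3.12 to 4.95). SAR1B, a GTPase of COPII vesicles, had 16 and 12 counts in oWAT and sWAT, against 67 in liver and 104 in muscle. HOMER2, a synaptic scaffold protein, had 1 count in each fat library, against 29 in liver and 81 in muscle, and GPRC5C, an orphan receptor, had 6 and 4, against 44 and 131. All 5 were higher in muscle than in liver by CPM.

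The last named genes rested on few counts in 1 or both other tissues. CHAD (chondroadherin) had 0 counts in fat, against 15 in liver and 14 in muscle, and ATP2B2, a plasma membrane calcium pump, had 0, against 12 and 15. ITIH4, a plasma protein gene, had 0 counts in oWAT and 1 count in sWAT, against 2532 in liver and 16 in muscle, so that its call turned on 16 muscle counts. In the same muscle library ALB had 0 counts and TF 16. Of the 23, 1 is known by an identifier without a symbol. In 6 of the 23 both fat libraries had 0 counts.

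Under library totals neither other tissue alone set the boundary of the lower genes: the closest pairing was with liver for 13 and with muscle for 10. Liver exceeded muscle by more than 2-fold, by the bound of the interval, in 4 of the 23, and muscle exceeded liver in 3. The interval of oWAT over sWAT included 1 in 21 of 23, and at these low counts such intervals are wide.

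**Figure D3:**
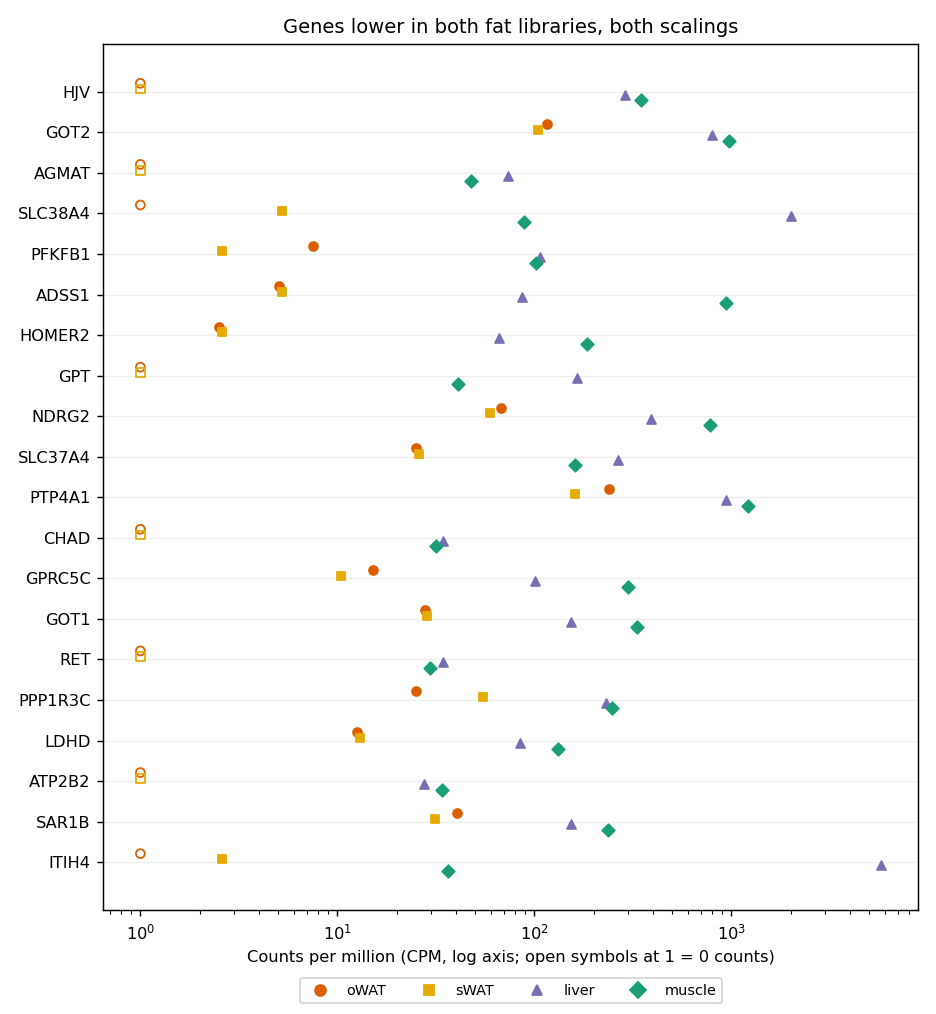
CPM of 20 genes that were lower in both fat libraries with both scalings, on a log axis, with 1 symbol per library and open symbols at 1 for 0 counts. In every row both fat symbols lie left of the liver and muscle symbols; HJV, AGMAT, GPT, CHAD, RET and ATP2B2 have 0 counts in both fat libraries.

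TMM scaling added 30 lower genes, 27 of them with symbols. Of the 30, 7 belonged to a gene list and 23 to none. Genes of mitochondrial proteins were among them and were picked for naming after their values were seen. Their share of the 30 was not counted. ATP5F1A, the alpha subunit of ATP synthase, had 577 CPM in oWAT and 404 CPM in sWAT, against 695 CPM in liver and 1305 CPM in muscle, a closest ratio of 1.20 with library totals and 2.42 with TMM. ATP5F1B, the beta subunit, had 161 CPM in oWAT and 130 CPM in sWAT, against 233 CPM in liver and 321 CPM in muscle (1.45 and 2.90). Both subunits lay below both other tissues with either scaling, but past the 2-fold bound with TMM alone.

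Among the other added genes, CRAT, which buffers acetyl groups as acetylcarnitine, had 47 counts in oWAT and 52 counts in sWAT, against 137 in liver and 166 in muscle. SLC25A25, an ATP-magnesium/phosphate carrier, had 28 and 20 counts, against 152 in liver and 90 in muscle, and SLC25A42, a coenzyme A carrier, had 0 and 1, against 38 and 14. AIFM1, a mitochondrial flavoprotein, had 14 counts in oWAT and 9 counts in sWAT, against 57 in liver and 45 in muscle. CLUH, which binds messenger RNAs of mitochondrial proteins, had 61 and 41, against 132 and 140. Outside mitochondria, RXRA, the partner of many nuclear receptors, had 13 counts in oWAT and 9 counts in sWAT, against 51 in liver and 47 in muscle, and DMD (dystrophin) had 18 and 26, against 75 and 109.

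In the nuclear respiratory chain 18 of 43 listed genes were measured, 2 of them called lower with TMM and 0 with library totals. All 4 folds were below 1 in 14 of the 18 with TMM and in 6 with library totals; over all measured genes the shares were 18.9% and 5.41%. UQCRC1 had 46 counts in oWAT and 38 counts in sWAT, against 49 in liver and 129 in muscle, and NDUFS1 had 54 and 50, against 70 and 127. NDUFS1 was below both tissues with either scaling and UQCRC1 with TMM alone.

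Fatty acid oxidation had 35 measured of 36 listed genes, with 11 below both other tissues in both fat libraries under library totals and 17 with TMM. The TCA cycle list had 6 and 13 of 28, mitochondrial carriers and biogenesis 10 and 16 of 34, and the proteasome and ubiquitin list 3 and 15 of 31. CRAT, SLC25A25 and SLC25A42 were the calls of these lists, all with TMM alone, against 0 with library totals. For oxidation the log2 ratio of fat over liver was -1.57 and over muscle -0.05, whereas for the TCA cycle they were 0.08 and -0.52 (all measured genes, 0.86 and 0.45). Replacing zeros by 3 counts gave medians of -1.59 and -0.06 for oxidation, 0.08 and -0.52 for the TCA cycle, -1.78 and 0.11 for amino acid breakdown and 0.82 and 0.44 for all measured genes. ACADVL, which opens the oxidation of very long chains, had 182 counts in oWAT and 91 counts in sWAT, against 368 in liver and 162 in muscle, and CS (citrate synthase) had 78 and 61, against 25 and 161. With library totals neither was on 1 side in all 4 pairings, and with TMM ACADVL was below 1 in all 4.

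**Figure D4:**
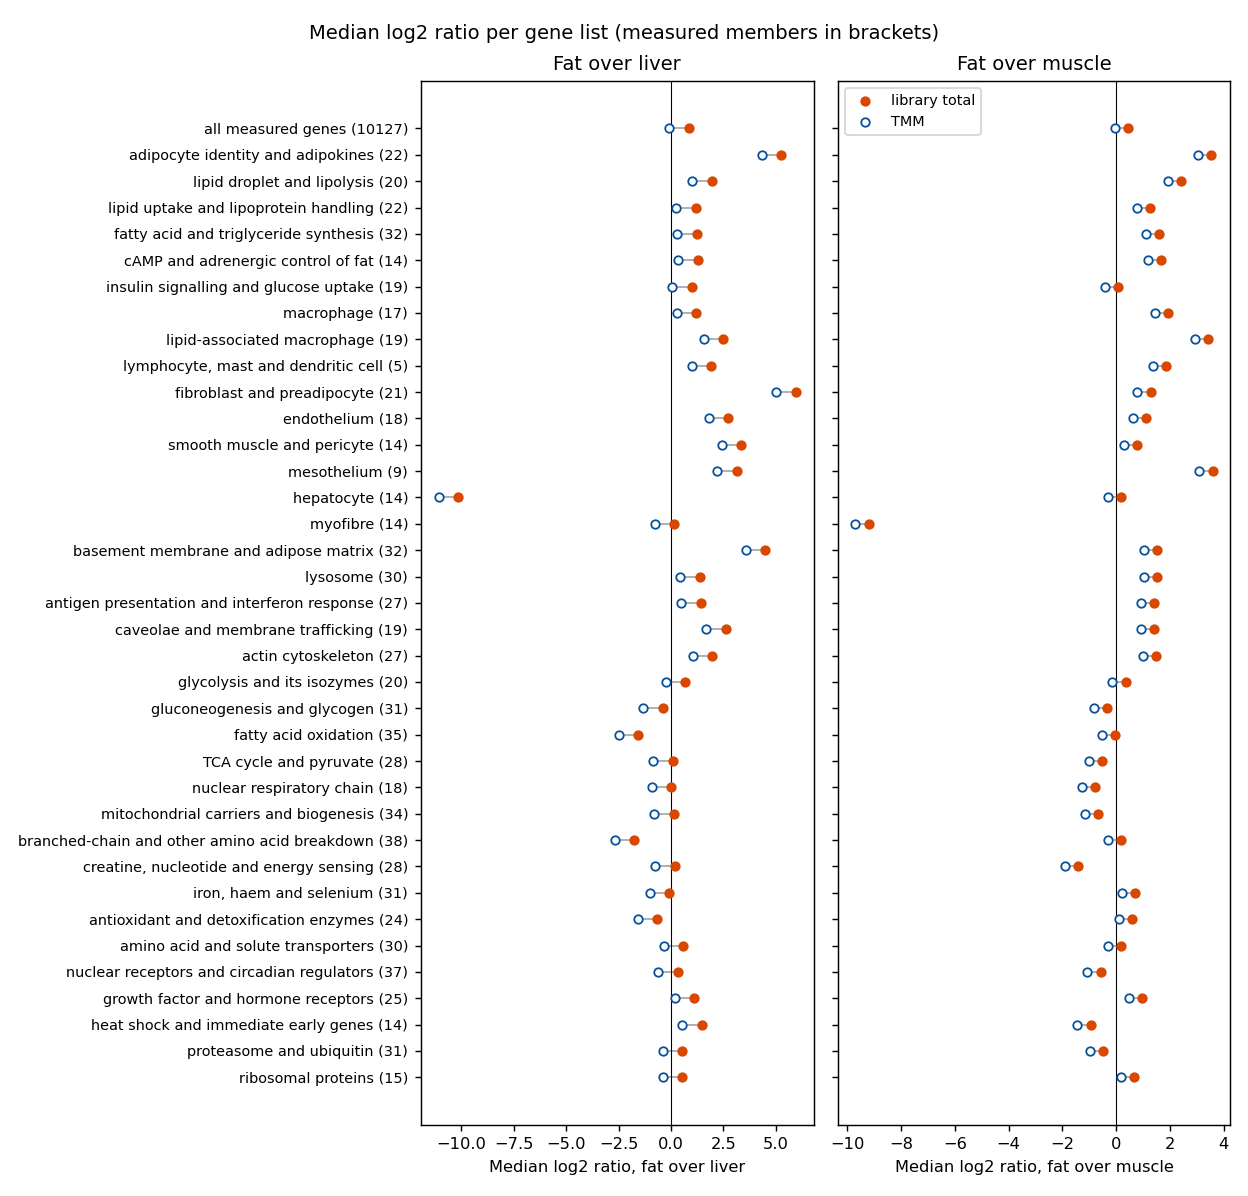
Median log2 ratio of fat (mean of oWAT and sWAT) over liver at left and over muscle at right for all measured genes and 36 gene lists, with library-total scaling (filled) and TMM scaling (open). Lists of adipocyte, lipid-associated macrophage and matrix genes lie right of all measured genes in both panels, and glycogen, respiratory chain, carrier and energy lists lie left of them in both.

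Of the 233 genes higher in both fat libraries 80 belonged to a gene list and 153 to none; of the 68 called with both scalings 37 did and 31 did not. LPL, the lipase that frees fatty acids from circulating lipoproteins, had 2841 counts in oWAT and 3529 counts in sWAT, against 20 in liver and 252 in muscle. The adipocyte list had 22 measured of 27 listed genes, 15 called higher with library totals and 10 with TMM. FABP4, the fatty acid carrier of adipocytes, had 292 and 347, against 1 and 13. LIPE, hormone-sensitive lipase, had 1313 counts in oWAT and 783 counts in sWAT, against 3 in liver and 100 in muscle. LPL and FABP4 were higher in sWAT and LIPE in oWAT, and for all 3 muscle was the closer tissue. In lipid uptake and lipoprotein handling 5 of 22 measured genes were higher, and 4 with TMM: LPL, FABP4, APOL6 and CD36, the fatty acid translocase.

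Droplet and lipolysis genes had 20 measured of 25 listed, 9 called higher with library totals and 6 with TMM. PLIN1, which guards the droplet surface, had 216 counts in oWAT and 165 counts in sWAT, against 0 in liver and 26 in muscle. AQP7, the glycerol channel, had 66 counts in oWAT and 51 counts in sWAT, against 5 in liver and 4 in muscle. LGALS12, a droplet galectin outside the list, had 40 and 29, against 0 and 1. In contrast PLIN5 had 0 counts in oWAT and 1 count in sWAT, against 45 in liver and 10 in muscle, so all 4 pairings were below 1, and it was not called. PLIN2 was not analysed here.

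Of 32 measured genes of fatty acid and triglyceride synthesis 6 were higher under library totals, and SCD and ELOVL5 alone with TMM. SCD, the desaturase that makes oleate, had 3804 counts in oWAT and 6645 counts in sWAT, against 560 in liver and 1248 in muscle. ELOVL5, an elongase of polyunsaturated chains, had 977 and 748, against 54 and 128. FASN (fatty acid synthase) had 552 counts in oWAT and 1218 counts in sWAT, against 224 in liver and 130 in muscle; oWAT over liver set its ratio of 2.72 (2.32 to 3.19), which was 1.35 with TMM. The cholesterol exporter ABCG1 had 166 and 117 counts in oWAT and sWAT, against 8 in liver and 24 in muscle, and PLTP, a phospholipid transfer protein, had 89 and 77, against 3 and 9; both were called with both scalings.

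**Figure D5:**
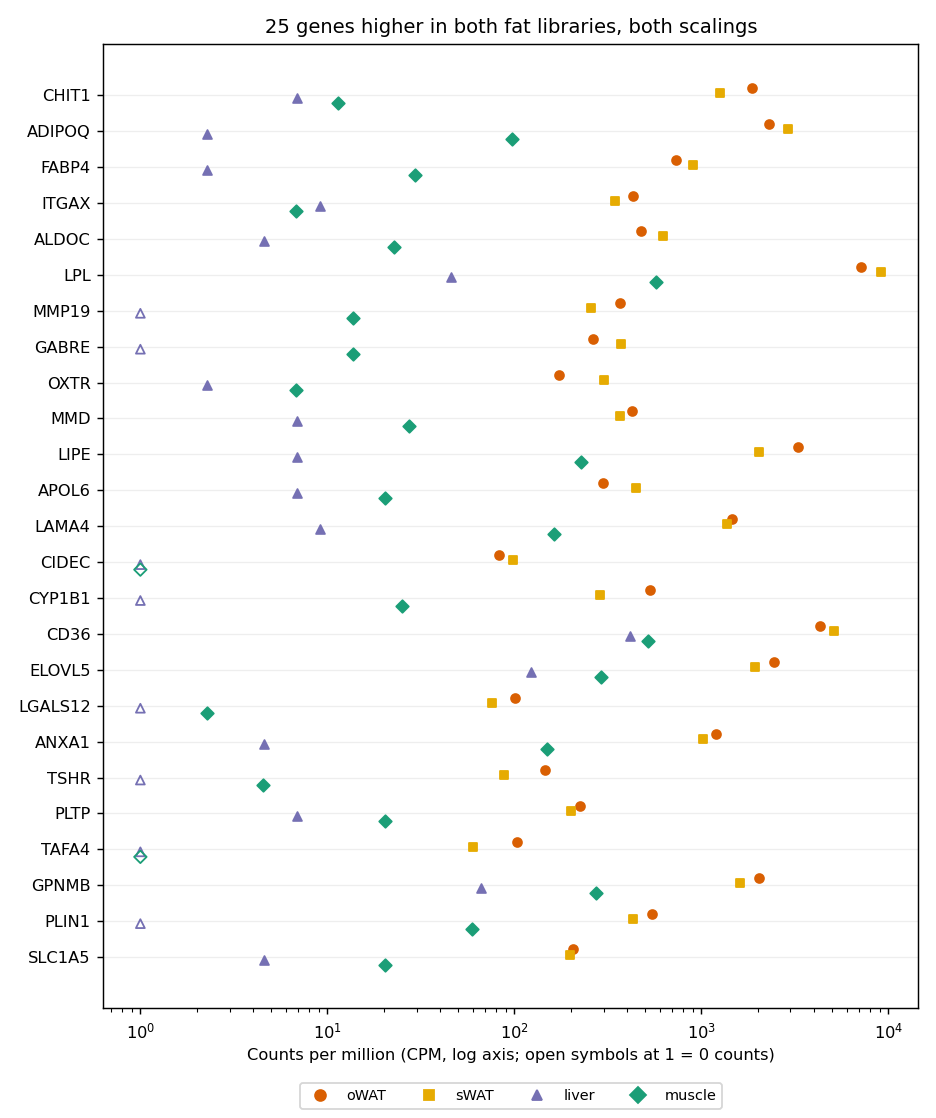
CPM of the 25 genes with the largest lower bound under TMM among those higher in both fat libraries with both scalings, on a log axis, with 1 symbol per library and open symbols at 1 for 0 counts. In every row both fat symbols lie right of the liver and muscle symbols, and muscle usually lies between fat and liver.

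Of 17 measured general macrophage markers, CD68 and MSR1 were called, and of 19 measured genes of lipid-associated macrophages 8 were called with library totals and 5 with TMM. MSR1, a scavenger receptor, had 54 counts in oWAT and 37 counts in sWAT, against 3 in liver and 0 in muscle, and CHIT1 (chitotriosidase) had 743 and 484, against 3 and 5. GPNMB, a lysosomal glycoprotein, had 807 counts in oWAT and 617 counts in sWAT, against 29 in liver and 121 in muscle. SPP1 (osteopontin) had 282 and 74, against 3 and 15, and was 3.69 times as high in oWAT as in sWAT (2.84 to 4.83). CD163 and MRC1 were not called and lay above both other tissues in all 4 pairings with library totals but not with TMM, CD163 having 33 and 62 counts in the fat libraries, against 31 in liver and 20 in muscle, and MRC1 having 99 and 100, against 68 and 30. TREM2 had 6 counts in each fat library, against 3 in liver and 0 in muscle.

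The whole macrophage list summed to 2440 CPM in oWAT and 2045 CPM in sWAT, against 891 CPM in liver and 800 CPM in muscle; of its 21 members 2 were at 0 counts in the oWAT library and 1 in the sWAT library, against 4 in liver and 6 in muscle. The part of macrophage number in the calls above was not tested. LPL, LIPA and CTSB, which adipocytes or many other cells express as well, are among the 8. Lysosomal genes had 5 of 30 measured members higher with library totals and GRN (progranulin) alone with TMM. GRN had 606 counts in oWAT and 392 counts in sWAT, against 86 in liver and 111 in muscle. LIPA, the lysosomal acid lipase, had 561 and 420, against 111 and 34, and its 4.31-fold difference from liver (3.49 to 5.37) was 2.38-fold with TMM and no longer called.

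The list of basement membrane and adipose matrix had 32 measured of 36, with 8 called higher and 6 with TMM. LAMA4, a laminin chain, had 578 counts in oWAT and 530 counts in sWAT, against 4 in liver and 72 in muscle. LAMB1 had 355 and 148, against 18 and 30. COL4A1, a collagen of basement membranes, had 70 counts in oWAT and 135 counts in sWAT, against 3 in liver and 13 in muscle, and NID2, which links laminin and collagen networks, had 114 and 177, against 5 and 25. MMP19, a matrix metalloproteinase, had 146 and 99, against 0 and 6. LAMB2 and LAMC1 were also above both other tissues in all 4 pairings, with 245 and 357 counts of LAMB2 in oWAT and sWAT, against 22 in liver and 123 in muscle, but were not called.

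Of 19 measured genes of caveolae and membrane trafficking, 10 were called higher with library totals and 3, CAV1, ANXA1 and ANXA2, with TMM. CAV1 (caveolin 1) had 818 counts in oWAT and 695 counts in sWAT, against 12 in liver and 219 in muscle, and CAVIN1 had 763 and 839, against 18 and 282. CAVIN4, the muscle cavin, had 0 counts in both fat libraries, against 0 in liver and 115 in muscle. EHD2, an ATPase of caveolar necks, had 916 and 751 counts, against 4 in liver and 349 in muscle; its muscle ratio of 2.47 (2.17 to 2.81) was 1.85 with TMM. For all 3 caveolar genes liver was much farther from fat than muscle was.

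Of the actin cytoskeleton genes all 27 measured members were above both other tissues in all 4 pairings under library totals, and 21 were with TMM; over all measured genes the shares were 42% and 21.8%. Calls numbered 8 and 1. MYH10, a non-muscle myosin and the call under both scalings, had 358 counts in oWAT and 241 counts in sWAT, against 52 in liver and 41 in muscle. VIM (vimentin) had 397 and 439, against 13 and 143. These genes are used by many stromal and blood cells as well as adipocytes, and the fibroblast list in the same libraries summed to 44995 CPM in oWAT and 106451 CPM in sWAT, against 953 CPM in liver and 35328 CPM in muscle, with 0 of its 22 members at 0 counts in oWAT, sWAT and muscle and 6 in liver. The part of fibroblasts in these differences was not tested.

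Some receptors and secreted factors of the higher set had low counts but wide separation. The list of growth factor and hormone receptors had 25 measured members, 3 called higher (OXTR, GABRE and TGFBR3) and 2 with TMM (OXTR and GABRE). GABRE, a GABA-A receptor subunit, is a listed member but neither a growth factor receptor nor a hormone receptor. OXTR, the oxytocin receptor, had 69 counts in oWAT and 116 counts in sWAT, against 1 in liver and 3 in muscle. TSHR, the thyrotropin receptor, had 58 and 34, against 0 and 2, and was 19.5-fold higher in sWAT than in muscle (4.99 to 167). TAFA4, a secreted cytokine-like protein, had 41 and 23 counts, against 0 in both liver and muscle. With 3 counts in place of 0 it was 8.74-fold higher (lower bound 6.55). ACVR1C, an activin receptor known as ALK7, had 43 and 50, against 4 and 2. CYP1B1, a cytochrome P450, had 212 counts in oWAT and 110 counts in sWAT, against 0 in liver and 11 in muscle.

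In cAMP and adrenergic control 2 of 14 measured genes were higher with library totals and 0 with TMM. PTGER3, a prostaglandin E2 receptor that lowers cAMP, had 113 counts in oWAT and 145 counts in sWAT, against 35 in liver and 13 in muscle, and PRKAR2B, a regulatory subunit of protein kinase A, had 22 and 23, against 0 and 3. ADRB3, the beta-3 receptor, had 2 counts in each fat library and 0 in liver and muscle, too few to compare. In insulin signalling 1 of 19 measured genes was higher with library totals and 0 with TMM. SLC2A4, the glucose transporter GLUT4, had 45 counts in oWAT and 43 counts in sWAT, against 1 in liver and 317 in muscle, so it was above liver and below muscle.

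For antigen presentation and interferon response, 3 of 27 measured genes were higher with library totals, B2M, IRF8 and APOL6, and APOL6 alone with TMM. B2M (beta-2-microglobulin) had 425 counts in oWAT and 493 counts in sWAT, against 125 in liver and 90 in muscle. Among amino acid and solute transporters SLC1A5, a glutamine transporter, had 82 and 76 counts, against 2 and 9, and SLC7A10, a serine and glycine transporter of adipocytes, had 28 in each fat library, against 0 and 4; SLC1A5 was called with both scalings and SLC7A10 with library totals only. SLC38A4, described above, was the 1 lower call among the 30 measured transporters. Among 37 measured nuclear receptors and circadian regulators 1 was lower with library totals and 2 with TMM, which added RXRA. PPARG, the master regulator of adipocytes, was higher with library totals only, at 32 counts in oWAT and 33 counts in sWAT, against 0 in liver and 7 in muscle.

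Under library totals muscle set the closest pairing for 172 of the 233 higher genes and liver for 61. With that scaling the median measured gene lay 0.86 above liver and 0.45 above muscle on the log2 scale. The closest pairing was not counted with TMM or over all genes, so this split may depend on the scaling. By the bound of the interval, again under library totals, muscle exceeded liver by more than 2-fold in 50 of the 233 and liver exceeded muscle in 1. The muscle library also held counts of genes on the adipocyte list. This list summed to 15116 CPM in oWAT and 12725 CPM in sWAT, against 3373 CPM in liver and 2383 CPM in muscle. Of its 27 members 9 were at 0 counts in muscle and 14 in liver. The liver sum came mainly from RBP4 (1063 counts) and GPD1 (338 counts), both hepatic genes as well. The muscle sum of 1048 counts came mainly from GPD1 (667 counts), while PLIN4 had 123 counts in muscle, ADIPOQ 43 and PLIN1 26. The part of fat cells within the muscle sample in these ratios was not tested.

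The 233 higher genes took 13.1% of oWAT counts and 14.6% of sWAT counts, against 1.29% in liver and 2.73% in muscle. The rule that chose these genes requires the larger share in fat, so the shares give only the size of the set. Within them the depots had a median oWAT over sWAT of 0.99 and an interval that included 1 in 131. Of the 233, 8 differed between depots by more than 2-fold by the bound of the interval, 3 higher in oWAT and 5 in sWAT. SPP1, VIPR2 (a receptor of vasoactive intestinal peptide) and RARRES1 were higher in oWAT, and PXDN (peroxidasin), TIMP3, SEMA3G, COL4A2 and FASN were higher in sWAT. RARRES1 had 94 counts in oWAT and 12 counts in sWAT, against 0 in liver and 1 in muscle, and PXDN had 222 and 636, against 40 and 57. Among all 5520 genes tested, 32 (0.58%) were higher in oWAT and 30 (0.543%) in sWAT by the same bound, smaller shares than among the 233. The bound is easier to pass at high counts, and the sets were not matched for counts. Whether the 233 differ more between depots was therefore not tested.

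Some lists had 0 calls in either direction with either scaling. They were endothelium, smooth muscle and pericyte, mesothelium, hepatocyte, myofibre, the TCA cycle, lymphocyte, mast and dendritic cells, antioxidant enzymes, heat shock and immediate early genes, the proteasome and ribosomal proteins. Their measured members ranged from 5 (lymphocyte, mast and dendritic cells) to 31 (the proteasome). Lists of that size can lack calls where 2.3% of measured genes were called higher and 0.227% lower with library totals. Endothelial genes had all 4 folds above 1 in 14 of 18 measured members with library totals and 10 with TMM. Over all measured genes the shares were 42% and 21.8%. PECAM1 had 352 counts in oWAT and 535 counts in sWAT, against 44 in liver and 189 in muscle. Fibroblast genes had 4 of 21 measured members called, PDGFRA, LUM, DPT and CCDC80, and 0 with TMM. CCDC80 had 1493 counts in oWAT and 1301 counts in sWAT, against 6 in liver and 623 in muscle, with a muscle ratio of 2.39 (2.17 to 2.64) and 1.80 with TMM.

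Genes at the edge of the rule differed little from each other. CA5B, TNFRSF21 and PML were the last inside the higher set, with smallest lower bounds of 2.005, 2.006 and 2.009, and SRPX and DDR2 were nearest outside, with 1.999 and 1.997. On the lower side ITIH4 and SAR1B were near the edge inside, with largest upper bounds of 0.461 and 0.459, and SLC25A25, ANKRD46 and SLC25A42 the nearest outside, with 0.532, 0.533 and 0.538; with TMM those 3 were called.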

How the data were processed

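Gene counts came from 4 full-length libraries (oWAT, sWAT, liver, muscle). The authors deposited whole-number counts per gene, not normalized; per the labels' protocols, RNA of 5 monkeys was pooled per tissue, and minimap2 2.24 is named in the submitters' processing notes. The sources used here state no genome build, annotation, strand use, read filter or handling of reads shared between near-identical genes, so values of close paralogues are uncertain and no coordinates or sequences are given. Library totals were 396797 (oWAT), 383896 (sWAT), 437587 (liver) and 439872 (muscle). Genes a file does not list were set to 0. The entry that names no gene was left out: it held 19.5% of oWAT, 16.6% of sWAT, 19.2% of liver and 14.3% of muscle counts. Of 13982 names, 12266 are symbols in RefSeq's table of T2T-MFA8v1.1 and 1214 were identifiers, counted but not named. Per-gene differences in transcript length were not used, so levels are compared within a gene.

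Folds are ratios of scaled counts, and their exact 95% intervals (Clopper-Pearson) treat the 2 counts as a binomial share; the reads carry no molecular identifiers here, so intervals cover counting error only. A fold against 0 counts used a floor of 3 counts per library in place of 0. It is given with the lower bound of its interval, which was computed from the counts without that floor. Scaling was to library totals, and alternatively to edgeR 4.0.16 TMM factors (1.35, 1.21, 0.671 and 0.911 in the order above) or DESeq2 1.42.0 size factors (1.30, 1.11, 0.722 and 0.985) in R 4.3.3, both tools being used for scaling alone. List members were measured with at least 10 counts over the 4 libraries; medians used 0.5 added counts. Named genes were the 25 called with both scalings with the largest bound under TMM (higher) or smallest under library totals (lower), the 10 most abundant calls, up to 6 members per list, those nearest either side of each threshold, and isozyme families; some genes that the rule names are not reported here. Genes called lower with TMM alone, those that differed between the depots, and ABCG1, GPT2 and further list members beyond 6 were named after their values were seen. The members, lists and rule were chosen with earlier results of these data known. Promoter motifs were planned and not examined. Python 3.11.15, NumPy 2.4.6, pandas 2.3.3, SciPy 1.17.1 and matplotlib 3.10.9 were used.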

Additional observations from a re-analysis of the deposited data

Results flagged for a closer look

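Counts that name no gene lie outside the comparison and are listed here because every file holds them. They made up 19.5% of the oWAT file (exact 95% binomial interval 19.4 to 19.7), 16.6% of the sWAT file (16.5 to 16.7), 19.2% of the liver file (19.1 to 19.3) and 14.3% of the muscle file (14.2 to 14.4). The share did not separate fat from the other tissues, as oWAT was close to liver. Adding these counts to the totals gave 209 higher and 24 lower genes, against 233 and 23 without them. With 1 library per tissue, no sample could be set against others of its group.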

How the results depend on the processing

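The number of higher genes, 233, was 68 with TMM, 71 with DESeq2 size factors, 1165 with a bound of 1, 43 with a bound of 4 and 154 with a 99% interval; the number of lower genes, 23, was 53, 52, 73, 7 and 17 in the same order. Without the oWAT library the counts were 420 and 35, without the sWAT library 444 and 34, without the liver library 389 and 426, and without the muscle library 1154 and 583; fewer pairings have to agree there. Genes with all 4 intervals above 1 numbered 1208, or 449 with TMM and 472 with DESeq2, and genes with all 4 below 1 numbered 74, or 274 and 256. Minimum counts of 5, 20 or none, totals with the entry that names no gene or without each library's 10 most abundant genes, and thinning to the smallest library kept both counts within 1.5 times. Of 226 higher genes with symbols, 161 lost the call with TMM and 159 with DESeq2; all 22 lower genes with symbols kept it with both. No paired analysis was possible because each tissue has 1 library. Intervals widen as counts fall, so genes with few counts in the higher tissue could not pass the bounds, and a missing call does not show equal levels.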
